A study of Homo sapiens with 21 samples.

Results

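Heat shock proteins and DNAJ proteins are the cell's main chaperones, and 62 of their genes are described here in human forebrain progenitor cultures. The genes were chosen by name alone from the 19874 features of the deposited normalized table: symbols that start with HSPA, HSPB, DNAJA, DNAJB or DNAJC and a number, and HSPH1, HSPD1, HSPE1 and the HSP90 genes. Of 73 matching names, 7 with a hyphen and 4 with a pseudogene ending were dropped. The 62 are 23 heat shock protein genes and 39 DNAJ genes, the DNAJ set made of 3 DNAJA, 10 DNAJB and 26 DNAJC genes. All 62 passed the filter on low counts, which left 19655 features for testing. A further 11 genes with the same name stems, held only by the deposited count table, were not analysed here.

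Chaperones bind unfolded protein and let it fold, move or be degraded. HSP70 proteins do this in cycles of ATP hydrolysis, which DNAJ proteins start by their J domain and which HSP110 proteins end by exchanging the nucleotide. HSP90 proteins finish the folding of kinases and receptors, small heat shock proteins hold unfolded chains without ATP, and the endoplasmic reticulum (ER) and mitochondria have HSP70 and DNAJ proteins of their own. Heat shock factor 1 (HSF1) drives many of the cytosolic genes, and the unfolded protein response drives the ER genes.

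RNA was measured by poly(A) sequencing in H9 cells, a human embryonic stem cell line, differentiated to progenitors like those of the lateral ganglionic eminence (LGE), the part of the embryonic forebrain that forms the striatum. All 21 libraries came from the same transgenic line, which carries wild-type GSX2 (WT in the labels), an LGE transcription factor, with a 2xFLAG tag behind the doxycycline-inducible TRE3G promoter. In Dox cultures, 100 ng/mL doxycycline was given for 12 h starting at day 10, and cells were harvested at 12, 24 and 48 h. NoDox cultures of the same line were harvested at the same times, and a baseline group was harvested at day 10, with 3 libraries in each of the 7 groups. Effects of the drug and of GSX2 cannot be told apart, since every treated culture carried the transgene. The labels do not state whether replicates came from separate cultures, and p-values then measure only the spread between these samples, which may be technical. Libraries held 14439089 to 33842591 counts. The transgene averaged 876 CPM (counts scaled by TMM-adjusted library size) in Dox cells at 12 h, 19.5 CPM at 24 h and 0.934 CPM at 48 h, and 0.135 to 0.309 CPM in the other groups.

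Marker genes were checked before the results. Of the 5 pluripotency markers, TDGF1 was at 0 in every day 10 and 12 h library, POU5F1 and NANOG averaged under 0.2 CPM in every group, and DPPA4 and LIN28A were detected. The 5 summed to 133 to 139 CPM in Dox libraries and 223 to 235 CPM in NoDox libraries at 12 h. Progenitor markers, summed over 6 genes with SOX2 and VIM among them, stood at 2404 to 2683 CPM in Dox libraries and 5491 to 5519 CPM in NoDox libraries at 12 h, against 4810 to 5134 CPM at day 10. The 5 neuron markers summed to 828 to 1001 CPM in Dox libraries and 1499 to 1729 CPM in NoDox libraries at 12 h, and to 1307 to 1480 CPM in Dox libraries and 1784 to 2031 CPM in NoDox libraries at 24 h. The 4 mesenchymal markers, COL1A1 among them, summed to 888 to 1311 CPM in Dox libraries and 404 to 463 CPM in NoDox libraries at 24 h. They also differed over time without Dox, at 756 to 832 CPM in NoDox libraries at 12 h and 804 to 1008 CPM at 48 h, against 383 to 518 CPM at day 10. The part of these shifts in any chaperone result was not tested, and in bulk RNA fewer cells of a type and less RNA per cell cannot be told apart. The 4 endothelial markers summed to at most 8.68 CPM and the 4 microglia markers to at most 3.03 CPM in any library. Replicate 3 of Dox at 12 h and replicate 1 of day 10 stood apart from their groups: chi-square per degree of freedom over all features was 16.7 to 26.8 and 10.8 to 14.5 in pairs with these libraries, and 1.85 to 5.67 in other pairs of replicates.

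Levels of different genes were compared in TPM, values scaled by the exon length of the gene as well as library size. Over all 21 libraries, the cytosolic HSP90s came highest: HSP90AB1 averaged 2895 TPM and HSP90AA1 1365 TPM. HSPA8, the constitutive cytosolic HSP70, averaged 860.3 TPM and DNAJA1, a J-protein partner of HSP70, 538 TPM. The small heat shock protein HSPB1 averaged 366 TPM, and HSPA5, the HSP70 of the ER known as BiP, 314 TPM. At the low end, DNAJC22 averaged 0.440 TPM and DNAJB13 0.817 TPM. This order rests on the exon lengths used, such as 13092 bases for HSP90B1, an HSP90 of the ER, and 2980 bases for HSP90AB1. With these lengths the highest genes were cytosolic, with HSPA5 below them.

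The summed level of the 62 genes changed with time in both arms. It was 7260 to 7617 TPM at day 10, was 11795 to 12639.9 TPM with Dox and 11111 to 11763 TPM without at 12 h, and stood at 8526 to 9240.3 TPM with Dox and 8249 to 8711 TPM without at 24 h. At 48 h it was 7214 to 7309 TPM with Dox and 7094 to 7395 TPM without. The 12 h libraries of both arms lay above all others, and at 48 h the range of each arm overlapped that of day 10. The sum is weighted to the highest genes, HSP90AB1, HSP90AA1, HSPA8 and DNAJA1, and does not show how many genes changed.

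**Figure D1:**
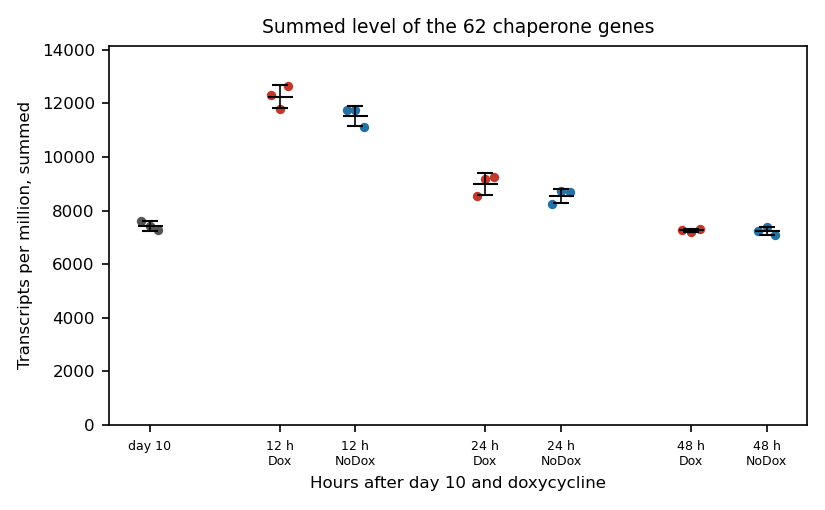
Summed level of the 62 chaperone genes (y axis, TPM) in each library by harvest time and arm (x axis): dots are libraries (grey day 10, red Dox, blue NoDox), bars the mean and SD (n = 3). The 12 h libraries of both arms start at 11111 TPM, and every other library is at or below 9240.3 TPM. TPM carry no TMM factors, so the arms are not on the scale used in the tests.

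The comparison of NoDox cultures with day 10 asks what time in culture alone did. At 12 h, 30 of the 62 genes were higher and 6 lower than at day 10 at an adjusted p below 0.05 in edgeR's quasi-likelihood test with Benjamini-Hochberg adjustment, used for every call below. Over all features tested, 15.5% were called higher and 16.3% lower. The median log2 fold change was 0.20 over the 62 genes and -0.01 over all features. Day 10 and the later harvests differ in time and in anything else done to the cultures between them, which cannot be told apart. Without replicate 1 of day 10 the counts were 31 higher and 6 lower.

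The largest rises lay in the cytosolic HSP70 cycle, the ER and the mitochondrial folding chamber. Their promoters are shown because these 5 genes led the 12 h rise. Each is 250 bases before to 50 bases after the transcription start, 5′ to 3′ along the gene, from RefSeq on GRCh38.p14: HSPA8 is at chr11:123062087-123062386 on the minus strand, DNAJA1 at chr9:33025023-33025322 on the plus strand, HSPA5 at chr9:125241294-125241593 on the minus strand, HSPH1 at chr13:31162339-31162638 on the minus strand and HSPE1 at chr2:197500129-197500428 on the plus strand. Capitals mark matches, on either strand, to the heat shock element in 3 units (GAA, TTC and GAA, each 2 bases apart), to its head-to-head (GAANNTTC) and tail-to-tail (TTCNNGAA) 2-unit forms, which the 3-unit form contains, and to the ER stress element (CCAAT, any 9 bases, CCACG).
HSPA8: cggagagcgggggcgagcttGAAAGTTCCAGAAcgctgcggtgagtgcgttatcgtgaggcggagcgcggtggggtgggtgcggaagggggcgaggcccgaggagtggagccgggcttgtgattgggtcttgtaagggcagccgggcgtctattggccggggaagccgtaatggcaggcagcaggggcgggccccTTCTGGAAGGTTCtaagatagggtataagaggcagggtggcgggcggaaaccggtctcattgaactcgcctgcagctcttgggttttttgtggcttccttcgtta
DNAJA1: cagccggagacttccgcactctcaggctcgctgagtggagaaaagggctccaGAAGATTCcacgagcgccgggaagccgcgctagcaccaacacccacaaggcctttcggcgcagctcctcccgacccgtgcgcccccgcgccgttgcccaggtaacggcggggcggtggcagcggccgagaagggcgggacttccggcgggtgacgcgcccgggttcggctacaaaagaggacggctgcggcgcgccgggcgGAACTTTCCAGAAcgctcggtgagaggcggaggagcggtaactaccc
HSPA5: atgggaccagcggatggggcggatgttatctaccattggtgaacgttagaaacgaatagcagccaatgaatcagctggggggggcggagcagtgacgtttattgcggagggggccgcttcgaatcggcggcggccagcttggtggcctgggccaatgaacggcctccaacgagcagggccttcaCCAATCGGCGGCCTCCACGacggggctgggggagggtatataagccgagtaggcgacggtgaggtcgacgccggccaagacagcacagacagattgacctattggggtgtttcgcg
HSPH1: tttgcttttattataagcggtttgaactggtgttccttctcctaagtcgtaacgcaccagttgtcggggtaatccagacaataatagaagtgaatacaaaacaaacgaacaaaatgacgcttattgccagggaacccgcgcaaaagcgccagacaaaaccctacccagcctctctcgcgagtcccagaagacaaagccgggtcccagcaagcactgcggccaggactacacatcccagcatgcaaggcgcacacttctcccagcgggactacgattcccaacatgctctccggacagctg
HSPE1: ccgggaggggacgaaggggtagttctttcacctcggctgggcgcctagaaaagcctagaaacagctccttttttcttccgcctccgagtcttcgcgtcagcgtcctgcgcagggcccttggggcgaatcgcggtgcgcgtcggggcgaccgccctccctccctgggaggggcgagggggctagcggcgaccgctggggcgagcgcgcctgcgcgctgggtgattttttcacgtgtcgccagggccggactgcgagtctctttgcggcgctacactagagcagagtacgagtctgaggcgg
HSPA8 held the 3-unit heat shock element on both strands, DNAJA1 held it and a separate 2-unit match, and HSPA5 held the ER stress element. HSPH1 and HSPE1 held none of these letters in this window.

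Of the 62 genes, 56 had a promoter in the RefSeq table, among them all 30 that were higher at 12 h. The 3-unit element was in 0.487% of all 27305 promoters and in 4 of the 56: DNAJA1, DNAJB6 and HSPA8, which were higher at 12 h, and HSPA6, which was not called. The head-to-head form was in 6.867% of all promoters and in 9 of the 56, of which 8 were among the 30 that were higher. HSPA1A, HSPA1B and HSPA1L are among the 8, and their matches are not independent. HSPA1A and HSPA1L start close together on opposite strands, so their windows overlap, and HSPA1B is almost identical to HSPA1A. The ER stress element was in 0.081% of all promoters and in HSPA5 and HSP90B1 of the 56. The tail-to-tail form was in 7.837% of all promoters and 6 of the 56, and CCAAT, contained in the ER stress element, in 35.697% and 22 of the 56. These matches describe the letters and are not binding sites shown in these cells.

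HSPA8 and its cofactors HSPH1 and DNAJA1 had the largest changes. HSPA8 (hg38 chromosome 11, 123057489 to 123063230) stood at 1786, 1692 and 1606 CPM in NoDox cells at 12 h, against 592, 576 and 554 CPM at day 10. Its log2 fold change was 1.56 ± 0.08 (SE, edgeR adjusted p = 9.5e-15), or 2.95-fold higher. The 12 h and day 10 libraries were far apart, and HSPA8 stood at 786, 870.1 and 897 CPM at 24 h (0.57 ± 0.07 against day 10) and was lower than at day 10 at 48 h (-0.28 ± 0.07). HSPH1, an HSP110 that exchanges nucleotide on HSP70, stood at 251, 236 and 223 CPM in NoDox cells at 12 h, against 102, 90.4 and 92.5 CPM at day 10 (1.32 ± 0.08, edgeR adjusted p = 4.2e-13). DNAJA1 (hg38 chromosome 9, 33025273 to 33039907) stood at 549, 527 and 511 CPM in NoDox cells at 12 h, against 295, 249 and 251 CPM at day 10, a change of 1.00 ± 0.09. In both genes no 12 h library came near a day 10 library. HSPH1 (-0.38 ± 0.08) and DNAJA1 (-0.43 ± 0.09) were below day 10 at 48 h, as HSPA8 was.

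The stress-inducible HSP70 pair moved less. HSPA1B was at 78.0, 83.0 and 75.3 CPM in NoDox cells at 12 h, against 56.3, 43.7 and 41.4 CPM at day 10 (0.75 ± 0.11), and HSPA1A changed by 0.56 ± 0.11. These neighbours are almost identical in sequence, so the split of reads between them is uncertain. Of the 9 cytosolic HSP70 genes 4 were higher and 1 lower at 12 h, where 15.5% of all features were higher and 16.3% lower. The lower gene, HSPA14, a ribosome-associated HSP70, stood at 14.9, 12.9 and 13.0 CPM in NoDox cells, against 22.1, 18.1 and 17.9 CPM at day 10 (-0.50 ± 0.11), and was lower at 24 h too (-0.71 ± 0.11). HSPA6, an HSP70 that many cells make only under stress, was under 1 CPM in every library of both groups and was not called.

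All 3 HSP90 genes were higher at 12 h. HSP90AA1, the inducible cytosolic HSP90, was at 2354, 2377 and 2105 CPM in NoDox cells, against 1475, 1322 and 1244 CPM at day 10 (0.76 ± 0.09), its sister HSP90AB1 changed by 0.41 ± 0.07 and the ER form HSP90B1 by 0.32 ± 0.07. In the ER, HSPA5 (hg38 chromosome 9, 125234853 to 125241382) stood at 721, 744 and 699.9 CPM in NoDox cells at 12 h, against 422, 383 and 355 CPM at day 10 (0.90 ± 0.07, edgeR adjusted p = 9.1e-11). The groups did not overlap. DNAJC3, a J-protein of the ER that works with BiP, changed by 0.78 ± 0.09 and DNAJB11, a BiP cofactor, by 0.51 ± 0.07. Of the 13 ER chaperones 6 were higher and 1 lower, beside 15.5% higher and 16.3% lower over all features.

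Of the 10 mitochondrial chaperones 6 were higher and 1 lower, where 15.5% of all features were higher and 16.3% lower. HSPE1, the lid of the mitochondrial folding chamber, stood at 154, 143 and 146 CPM in NoDox cells at 12 h, against 89.8, 84.1 and 75.3 CPM at day 10 (0.83 ± 0.07), and HSPD1, the chamber itself, changed by 0.47 ± 0.07. HSPA9, the mitochondrial HSP70 that pulls proteins through the inner membrane, changed by 0.46 ± 0.06. All 3 were called higher, and the lower gene was DNAJC4 (-0.36 ± 0.10). The read-through gene HSPE1-MOB4 overlaps 10.5% of the HSPE1 exons on the same strand, so the HSPE1 counts are uncertain to that extent. Same-strand overlaps with other genes cover exons of HSPB2 (85.3%), HSPA1B (36.6%), DNAJC14 (23.2%), DNAJC25 (13.7%), HSPA14 (12.7%) and DNAJC4 (10.6%), with the same limit. Among the cytosolic DNAJA and DNAJB genes 4 of 8 were higher and 2 lower, the lower ones being DNAJB5 (-0.45 ± 0.07) and DNAJB4 (-0.31 ± 0.07).

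**Figure D2:**
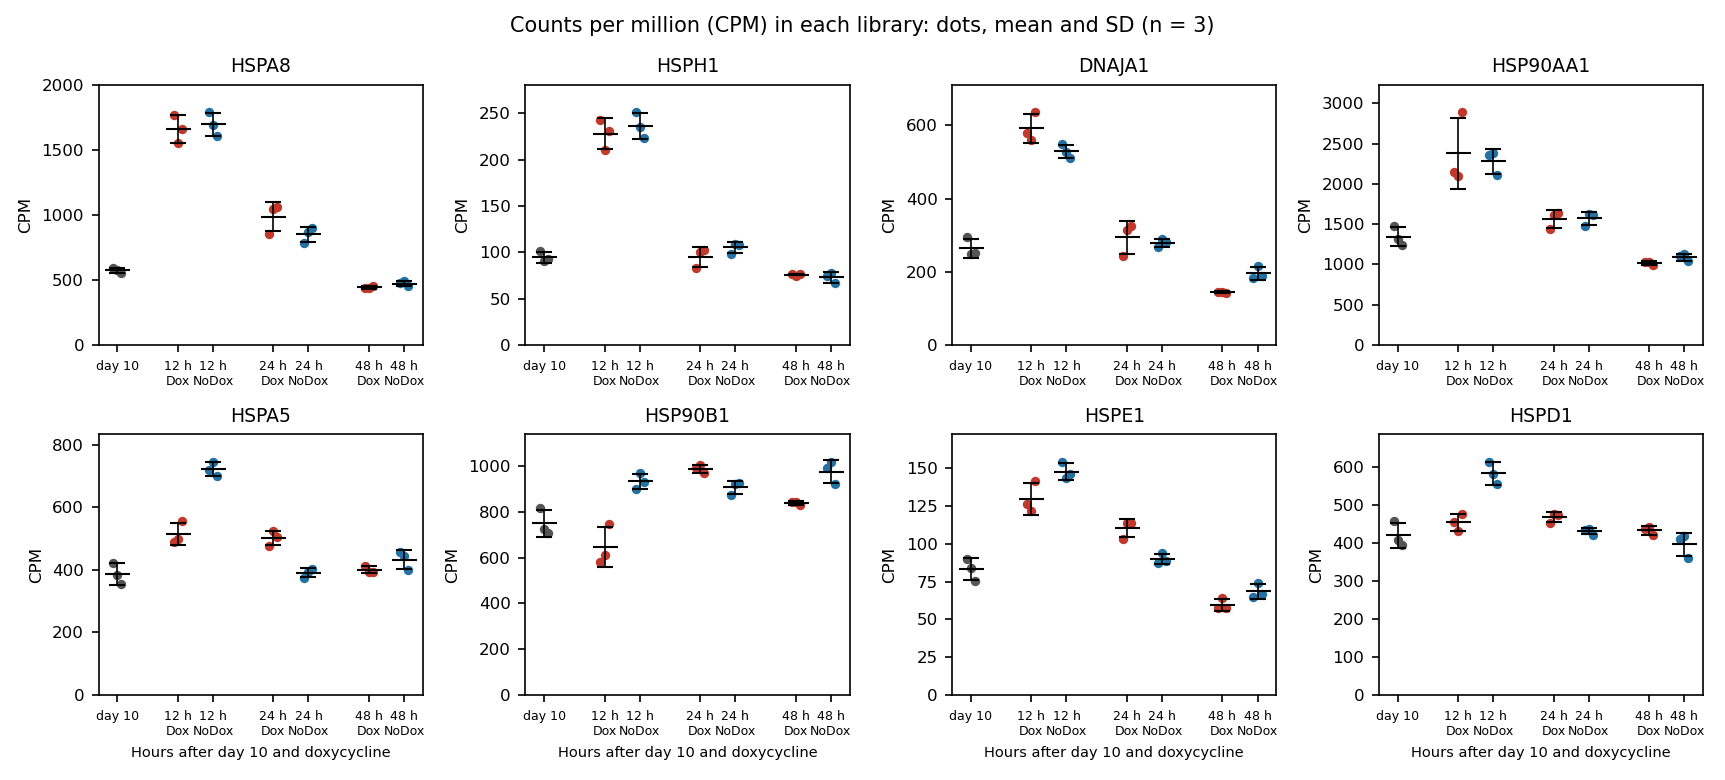
CPM (y axis) of 8 chaperone genes in each library by time and arm (x axis): dots are libraries (grey day 10, red Dox, blue NoDox), bars the mean and SD (n = 3). HSPA8, HSPH1, DNAJA1 and HSP90AA1 peak at 12 h in both arms, while HSPA5, HSP90B1 and HSPD1 are lower in Dox than in NoDox libraries at 12 h.

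Fewer genes differed from day 10 at 24 h: 5 genes were higher and 3 lower in NoDox cells than at day 10, where 8.84% of all features were higher and 8.47% lower. The higher ones were HSPA8, DNAJB2 (0.47 ± 0.06), HSPA4L (0.41 ± 0.07), HSP90B1 (0.28 ± 0.07) and DNAJC18 (0.26 ± 0.07). The call on HSP90B1 was lost without replicate 3 of day 10 (0.24), and that on DNAJC14 (-0.22 ± 0.07) without any of 5 of the 6 libraries. At 48 h, 19 were higher and 18 lower, and 21.4% and 20.2% of all features were so called. The change between 12 h and later times within NoDox cells was not tested, and the 3 comparisons share the day 10 libraries.

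With library totals in place of TMM scaling (trimmed mean of M-values) the 48 h counts were 16 higher and 21 lower. HSPB8, a small heat shock protein that works with BAG3 in selective autophagy, stood at 18.0, 22.5 and 21.9 CPM in NoDox cells at 48 h, against 6.41, 7.40 and 6.14 CPM at day 10 (1.64 ± 0.13, edgeR adjusted p = 1.4e-10). DNAJC1, an ER membrane J-protein, changed by 0.92 ± 0.11, and HSPA4L, an HSP110, by 0.78 ± 0.07. DNAJB2, a J-protein with ubiquitin-binding motifs known from neurons, changed by 0.77 ± 0.06. Lower at 48 h were DNAJC28 (-1.07 ± 0.24), DNAJC10, an ER disulfide reductase (-0.53 ± 0.06), and DNAJC9, a histone chaperone (-0.51 ± 0.08), whose exons overlap a gene on the other strand by 56.5%. HSPA6 changed by 1.86 ± 0.43, at 1.70, 1.43 and 1.41 CPM in NoDox cells at 48 h, against 0.141, 0.616 and 0.398 CPM at day 10.

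The lists of chaperone partners were read in the same comparison of NoDox cells at 12 h with day 10. They are set beside 15.5% higher and 16.3% lower over all features. Of the 16 HSP90 co-chaperones 11 were higher and 0 lower, of 14 subunits of the chaperonin TRiC and prefoldin 9 and 0, of 22 genes of the ER unfolded protein response 13 and 0, and of 13 other HSF1-responsive genes 8 and 2. The 13 nucleotide exchange factors and HSP70 regulators gave 6 higher and 1 lower, and the 14 mitochondrial proteases and chaperone partners 5 and 1. The median log2 fold changes of these 6 lists ran between 0.16 and 0.45, against -0.01 over all features. The lists share some genes with each other, such as BAG3, STIP1 and TRAP1, and TRAP1, held by the co-chaperone list, is itself an HSP90. HSF1 itself was not called (0.02 ± 0.06), and HSF2 was lower (-0.30 ± 0.08).

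Dox against NoDox cultures at the same time asks what doxycycline and GSX2 induction changed together. Its NoDox libraries at 12 h are also those of the comparison above. At 12 h, 14 of the 62 genes were higher and 14 lower in Dox cells, where 19.8% of all features were higher and 19.9% lower, and the median log2 fold change was 0.02 over the 62 genes and 0.01 over all. Several genes with large 12 h rises over day 10 were not called: HSPA8 stood at 1764, 1551 and 1659 CPM in Dox cells, against 1786, 1692 and 1606 CPM in NoDox cells (-0.03 ± 0.07). HSPH1 (-0.05 ± 0.07), DNAJA1 (0.16 ± 0.08), HSP90AA1 (0.06 ± 0.09), HSPA1A (0.02 ± 0.11) and HSPA1B (-0.03 ± 0.10) were not called either. With library totals in place of TMM, the median of all features moved by 0.18 and the counts became 30 higher and 6 lower, DNAJA1 (0.34) and HSP90AA1 (0.24) among the higher. Without replicate 3 of Dox at 12 h they were 13 and 13 under TMM.

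Of the 13 ER chaperones 1 was higher and 3 lower in Dox cells at 12 h, and of the 3 HSP90 genes 2 were lower, HSP90B1 and HSP90AB1 (-0.19 ± 0.07). Over all features 19.8% were higher and 19.9% lower, so the ER count is near that share. HSPA5 stood at 490.4, 499 and 556 CPM in Dox cells, against 721, 744 and 699.9 CPM in NoDox cells (-0.49 ± 0.07, edgeR adjusted p = 1.2e-06). HSP90B1, also known as GRP94, stood at 582, 609 and 746 CPM in Dox cells, against 901, 968 and 930.0 CPM in NoDox cells (-0.53 ± 0.07), and at 815, 725 and 708 CPM at day 10. Every Dox library was below every NoDox library in both genes. DNAJC1 (-0.43 ± 0.11) and DNAJB9, a BiP cofactor of ER-associated degradation (-0.34 ± 0.09), were lower too, but neither was called with library totals (-0.25 and -0.16), and DNAJC1 moved to -0.66 without replicate 3 of Dox. Of the 22 unfolded protein response genes 4 were higher and 6 lower, also near the share over all features, DERL3, a derlin of ER-associated degradation, by -1.65 ± 0.12, WFS1 by 0.48 ± 0.08 and the sensor ERN1 by 0.43 ± 0.12.

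HSPA4L and DNAJB4 were lower at both early times. HSPA4L (hg38 chromosome 4, 127781821 to 127840733) stood at 36.4, 33.6 and 29.0 CPM in Dox cells at 12 h, against 55.5, 52.8 and 45.9 CPM in NoDox cells (-0.63 ± 0.08), and at 39.6, 37.8 and 37.3 CPM in Dox cells at 24 h, against 70.2, 69.5 and 71.6 CPM in NoDox cells (-0.88 ± 0.08, edgeR adjusted p = 1.3e-10). At 48 h the arms overlapped (-0.10 ± 0.07). DNAJB4, a J-protein of the DNAJB1 kind, stood at 34.2, 35.9 and 41.5 CPM in Dox cells at 12 h, against 51.1, 55.5 and 50.7 CPM in NoDox cells (-0.50 ± 0.07), and changed by -0.40 ± 0.07 at 24 h. Neither was called at 48 h, where DNAJB4 had a value of 0.11 ± 0.07, and the change in effect between 24 h and 48 h was 0.78 ± 0.10 for HSPA4L and 0.51 ± 0.10 for DNAJB4. The mitochondrial HSPD1 was lower at 12 h (-0.36 ± 0.07). HSPA9 (-0.21 ± 0.06), HSPE1 (-0.19 ± 0.07), DNAJC11 (-0.19 ± 0.07), DNAJB5 (-0.22 ± 0.07) and DNAJC9 (-0.30 ± 0.08) were lower under TMM, and neither they nor HSP90AB1 were called with library totals.

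HSPA12B, a distant HSP70 known from endothelial cells, had the largest rise at 12 h. It stood at 5.94, 7.08 and 5.66 CPM in Dox cells, against 0.815, 1.05 and 0.967 CPM in NoDox cells (2.71 ± 0.20, edgeR adjusted p = 5.3e-12), and at 2.88, 3.09 and 2.94 CPM in Dox cells at 24 h, against 1.05, 0.923 and 1.42 CPM in NoDox cells (1.41 ± 0.20). At 48 h the arms overlapped. The 4 endothelial markers summed to 5.91 to 8.05 CPM in Dox libraries and 7.44 to 7.87 CPM in NoDox libraries at 12 h. Their part in the HSPA12B result was not tested. DNAJC28, a J-protein, stood at 4.47, 4.62 and 6.58 CPM in Dox cells at 12 h, against 1.99, 2.56 and 2.11 CPM in NoDox cells (1.22 ± 0.20). HSPA2, an HSP70 best known from the testis, rose by 0.73 ± 0.16. DNAJC6, auxilin, which uncoats clathrin vesicles in neurons, rose by 0.40 ± 0.09 and the ER J-protein DNAJC18 by 0.38 ± 0.07. The call on HSPA1L (0.57 ± 0.21) was lost without replicates 1 or 3 of NoDox or 2 of Dox at 12 h (0.45, 0.60 and 0.41). DNAJB13 and DNAJC22 were called higher and HSPA6 lower, each under 2 CPM in all 12 h libraries.

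Of the 3 small heat shock proteins, HSPB8 and HSPB1 were higher with Dox at 12 h and 24 h. Over all features 19.8% were higher at 12 h and 17.0% at 24 h. HSPB2 averaged only 0.200 to 0.444 CPM in the 7 groups and was not called. HSPB8 (hg38 chromosome 12, 119171555 to 119224855) stood at 16.9, 17.0 and 15.1 CPM in Dox cells at 12 h, against 10.1, 10.5 and 10.3 CPM in NoDox cells (0.66 ± 0.12). At 24 h it stood at 31.4, 31.6 and 32.6 CPM in Dox cells, against 6.53, 9.32 and 8.72 CPM in NoDox cells (1.98 ± 0.12, edgeR adjusted p = 9.9e-14), a 3.94-fold rise, the largest of the 62 genes at that time. At 48 h, it was at 20.8, 29.0 and 27.9 CPM in Dox cells, against 18.0, 22.5 and 21.9 CPM in NoDox cells, and the test was not passed (0.31 ± 0.12). HSPB1, also known as HSP27, stood at 137, 153 and 154 CPM in Dox cells at 24 h, against 109.8, 114 and 116 CPM in NoDox cells (0.38 ± 0.10). At 12 h it changed by 0.38 ± 0.10, and by 0.19 without replicate 3 of Dox. BAG3, the partner of HSPB8, rose by 0.38 ± 0.08 at 12 h and was not called at 24 h (-0.15 ± 0.08).

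**Figure D3:**
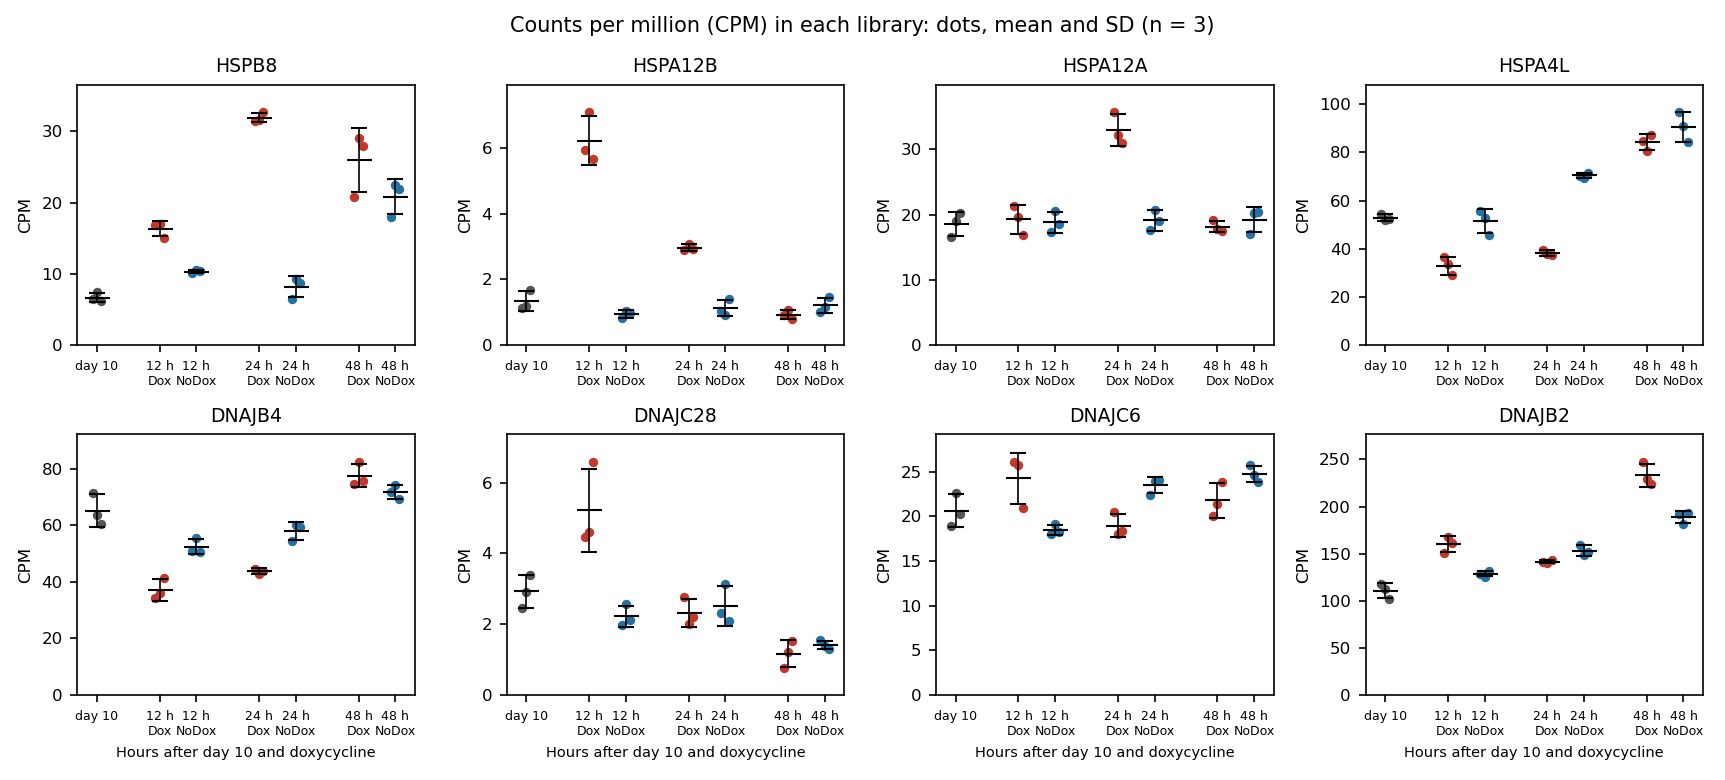
CPM (y axis) of 8 chaperone genes with a Dox effect, in each library by time and arm (x axis): dots are libraries (grey day 10, red Dox, blue NoDox), bars the mean and SD (n = 3). HSPB8 and HSPA12A are highest in Dox libraries at 24 h, HSPA12B and DNAJC28 in Dox libraries at 12 h, and HSPA4L and DNAJB4 are lower with Dox at 12 h and 24 h.

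At 24 h, 12 h after doxycycline ended, 14 genes were higher and 9 lower in Dox cells, where 17.0% of all features were higher and 16.9% lower. After HSPB8 and HSPA12B came HSPA12A, a distant HSP70 expressed in brain, at 35.7, 32.1 and 31.0 CPM in Dox cells, against 17.6, 20.8 and 19.0 CPM in NoDox cells (0.79 ± 0.10), with no overlap. HSPA5 was higher with Dox than without at this time, at 477, 523 and 505 CPM in Dox cells, against 375, 394 and 402 CPM in NoDox cells (0.36 ± 0.07). From 12 h to 24 h its mean went from 515 to 502 CPM in Dox cells and from 721 to 390 CPM in NoDox cells. Changes within an arm between these times were not tested. The mitochondrial HSPA9 (0.30 ± 0.06) and HSPE1 (0.29 ± 0.07) and the ribosome-bound DNAJC2 (0.38 ± 0.10) were higher as well, and HSPA8 was called higher (0.21 ± 0.07) with arms that overlapped. DNAJC30 (0.42 ± 0.13) lost its call without replicate 1 of NoDox at 24 h (0.33). Lower, besides HSPA4L and DNAJB4, were DNAJB5 (-0.31 ± 0.07) and DNAJC24, a J-protein of diphthamide synthesis (-0.29 ± 0.08). DNAJC1 (-0.37 ± 0.11), DNAJC27 (-0.35 ± 0.11), DNAJC6 (-0.31 ± 0.09) and DNAJC9 (-0.21 ± 0.08) were lower in the full set, but each lost its call without at least 1 library. For DNAJC9 the value was -0.12 without replicate 1 of Dox.

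The partner lists at 24 h are read beside 17.0% higher and 16.9% lower over all features, and their counts were not tested against those at 12 h. Of the 22 unfolded protein response genes 7 were higher and 2 lower in Dox cells, among them SDF2L1, an ER cofactor of BiP (0.70 ± 0.13), and the disulfide isomerase PDIA4 (0.36 ± 0.05), which had been lower at 12 h (-0.40 ± 0.05). DERL3 was still lower (-0.32 ± 0.11). Of the 16 genes listed as HSP90 co-chaperones 5 were higher and 1 lower, among them FKBP5 (0.72 ± 0.09) and FKBP4 (0.35 ± 0.07). TRAP1 (0.43 ± 0.06), the mitochondrial HSP90 and not a co-chaperone, is counted among the higher of this list and of the mitochondrial partners. Among 14 mitochondrial partners 4 were higher and 0 lower, with GRPEL1, the exchange factor of HSPA9, at 0.62 ± 0.10. The nucleotide exchange factors and HSP70 regulators gave 3 higher and 0 lower of 13, TRiC and prefoldin 3 and 1 of 14, and the other HSF1-responsive genes 3 and 2 of 13, all near that share of higher calls. HSF1 was lower in Dox cells at 12 h (-0.17 ± 0.06) and higher at 48 h (0.22 ± 0.06). HSF4 was higher at 12 h (1.22 ± 0.47), and HSF2 was lower at 24 h (-0.27 ± 0.08). With library totals the median of all features moved by 0.18 at 12 h, as much as the HSF1 change at that time.

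The change in the Dox effect between 12 h and 24 h was tested directly. It was higher at 24 h for 12 genes and lower for 8, where 16.1% of all features were higher and 14.8% lower. With library totals the counts were 8 and 22, and the median of all features moved by -0.19. HSPA5 (0.85 ± 0.10, edgeR adjusted p = 5.3e-08) and HSP90B1 (0.65 ± 0.10) had higher effects at 24 h: both were lower in Dox cells at 12 h, and at 24 h HSPA5 was higher while HSP90B1 was not called (0.12 ± 0.07). DNAJC2 (0.61 ± 0.14), HSPA12A (0.75 ± 0.14) and HSPB8 (1.31 ± 0.17) had a higher effect at 24 h. DNAJC28 (-1.32 ± 0.30), HSPA12B (-1.31 ± 0.30), HSPA2 (-0.80 ± 0.23), DNAJC6 (-0.70 ± 0.13), DNAJC18 (-0.52 ± 0.10) and DNAJB2 (-0.43 ± 0.08) had a lower one. DNAJC6 was higher in Dox cells at 12 h, at 24.2 ± 2.89 CPM, against 18.5 ± 0.61 CPM in NoDox cells (SD, n = 3 each), and lower at 24 h, at 20.5, 18.1 and 18.4 CPM, against 22.4, 23.9 and 24.1 CPM in NoDox cells.

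**Figure D4:**
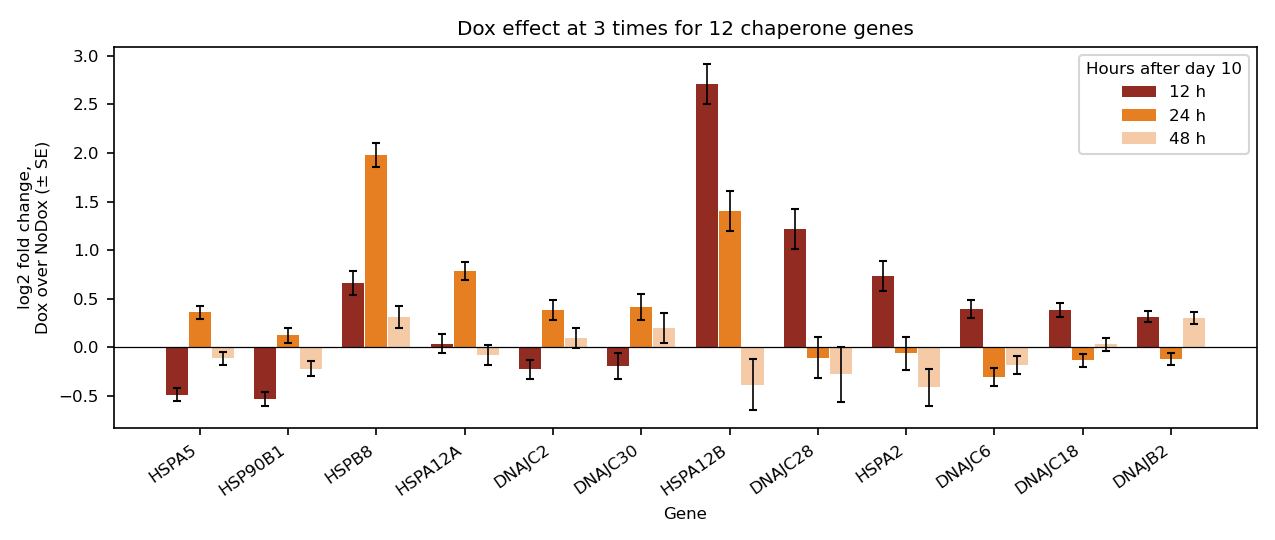
log2 fold change of Dox over NoDox cells (y axis) for 12 chaperone genes (x axis) at 12, 24 and 48 h after day 10: bars are the fitted values and error bars the SE. HSPA5 and HSP90B1 are below 0 at 12 h, HSPB8 is highest at 24 h and HSPA12B at 12 h.

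At 48 h, 7 genes were higher and 3 lower in Dox cells, where 9.23% of all features were higher and 8.94% lower. With library totals the counts were 3 and 9, so the balance of directions rests on the scaling. The calls on 4 genes held without any library. HSP90AB1 stood at 2343, 2224 and 2200.0 CPM in Dox cells, against 1891, 1882 and 1773 CPM in NoDox cells (0.29 ± 0.07). DNAJB2 stood at 247, 229 and 224 CPM in Dox cells, against 193, 182 and 193 CPM in NoDox cells (0.30 ± 0.06). DNAJC13, an endosomal J-protein, stood at 69.7, 60.7 and 70.7 CPM in Dox cells, against 54.2, 51.1 and 49.5 CPM in NoDox cells (0.38 ± 0.10). DNAJA1 was lower, at 146, 145 and 141 CPM in Dox cells, against 184, 217 and 188 CPM in NoDox cells (-0.44 ± 0.09, edgeR adjusted p = 0.00053). DNAJC4 (0.26), DNAJB9 (0.25), DNAJC7 (0.22), DNAJA3 (0.17), HSP90B1 (-0.22) and DNAJB12 (-0.26) lost their calls without at least 1 of the 48 h libraries. The higher count was 3 without replicate 2 of NoDox at 48 h and 4 without replicate 3 of NoDox or any replicate of Dox. The lower count was 1 without replicate 1 of Dox and 5 without replicate 1 of NoDox.

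From 24 h to 48 h the Dox effect was higher for 10 genes and lower for 14, where 12.7% of all features were higher and 13.1% lower. With library totals the counts were 6 and 16. The effect fell by 1.66 on the log2 scale for HSPB8, by 1.79 for HSPA12B and by 0.87 for HSPA12A, none of which was called at 48 h. It also fell by 0.52 for HSPB1 and by 0.52 for DNAJA1. Across the 3 Dox comparisons no gene was called at every time, and 18 genes were called at none, among them HSPH1, HSP90AA1, HSPA1A and HSPA1B. The share of all features with each pattern of calls across times was not counted, so no pattern is read as particular to chaperones. Genes called lower at 12 h and higher at 24 h were HSPA5, HSPA9, HSPE1 and DNAJC11 (0.18 ± 0.07 at 24 h). Those called lower at both were HSPA4L, DNAJB4, DNAJB5, DNAJC1 and DNAJC9. With library totals the 12 h lower call stood for HSPA5, HSPA4L and DNAJB4 of these 9 genes, and not for HSPA9, HSPE1, DNAJC11, DNAJB5, DNAJC1 or DNAJC9.

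**Figure D5:**
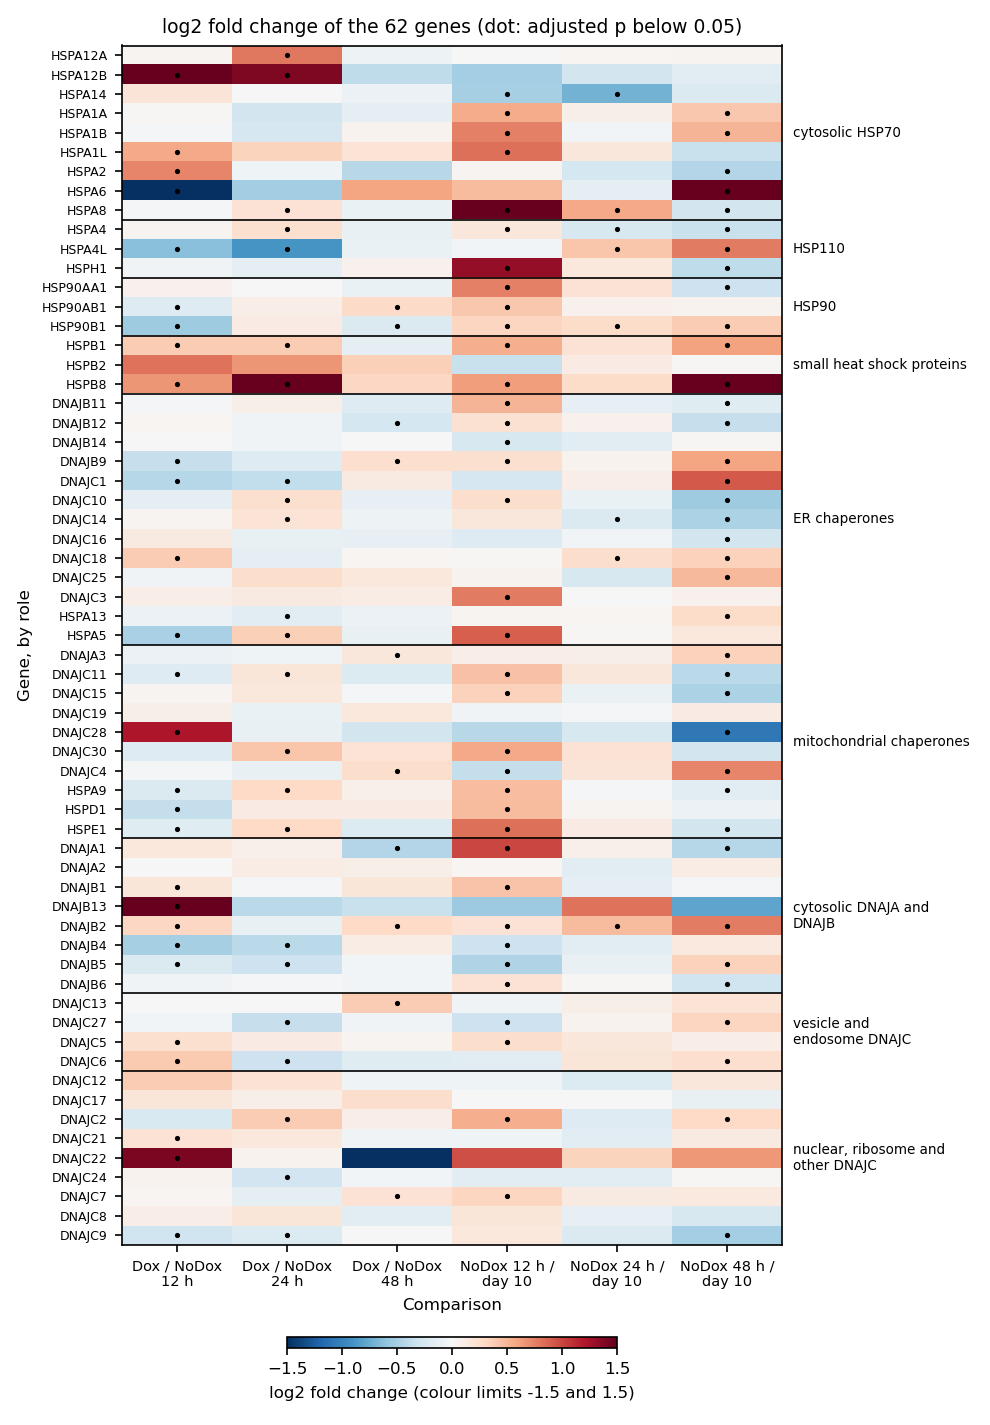
log2 fold change (colour, limits -1.5 and 1.5) of the 62 genes (rows, by role) in 6 comparisons (columns, each the group named first over the other), with a dot at an adjusted p below 0.05. The NoDox 12 h column holds 30 higher genes and 6 lower, and the Dox 12 h column 14 and 14.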

How the data were processed

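RNA was measured in 21 libraries, 7 groups of 3, grouped by the labels. Deposited counts are whole numbers of reads for each gene that the authors made on hg38; the submitters' processing notes name STAR 2.7.9 and Subread 2.0.3. For counting, the annotation and strand setting were not given in the sources used here. A directional kit was used, per the labels' protocols. The deposited signal values are normalized counts, the count divided by 1 factor per sample, and DESeq2 is named among the authors' tools. The normalized table held the 19874 features that reached 10 counts in 3 or more samples, and was used only to choose genes.

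The rule that picks the 62 genes uses names only, but this gene family, and every role, partner and marker list, was chosen with earlier results of these data known. CPM were computed here from counts and TMM factors, and TPM from counts and the exon lengths in the count table, without TMM factors. Counts of 19655 features that passed filterByExpr, holding 99.9% of counts, were tested in 1 edgeR 4.0.16 fit (R 4.3.3) of all 7 groups, with robust quasi-likelihood and 14 residual degrees of freedom, and Benjamini-Hochberg adjustment over all features. The biological coefficient of variation was 7.24%. Dox was compared with NoDox at 12, 24 and 48 h, each NoDox time with day 10, and the Dox effect at 1 time with that at the time before. Dox at 12 h and NoDox at 12 h against day 10 share the NoDox libraries.

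Genes named in each comparison were the up to 8 (Dox), 5 (NoDox against day 10) or 6 (differences) called genes of largest change in each direction with a mean of at least 2 CPM in a group compared, the 6 with the highest mean TPM, and up to 3 called genes of each partner list; other members were named with their values. Gene names shared by near-identical copies (HSPA1A and HSPA1B) or with processed pseudogenes (HSPA8, HSPD1, HSPE1) have uncertain counts. Same-numbered replicates were checked for pairing over 11147 features averaging at least 10 CPM: the 3 correlations of deviations were all over 0.1 only between Dox and NoDox at 24 h (0.253, 0.122 and 0.115). Over all 19655 features they were 0.0616, 0.0359 and 0.0312 there, so the pairing at 24 h depends on that minimum, and the block changed no call at 24 h. Alternatives were DESeq2 1.42.0, its size factors, library totals, no filter, only the groups compared, a replicate block and leaving out each library. No per-sample column was left unused. Progenitor markers were summed over 6 of the 7 listed, a choice made after the values were seen, and the remaining marker is not reported here.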

Additional observations from a re-analysis of the deposited data

Results flagged for a closer look

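The Dox effect differed between 12 h and 24 h for 20 genes and between 24 h and 48 h for 24. The test was of the difference itself, in edgeR's quasi-likelihood fit with Benjamini-Hochberg adjustment. Listed here are 24 of these results, those of largest change in each direction under the naming rule given above. Values are differences of log2 fold changes. Between 12 h and 24 h the effect rose by 1.31 for HSPB8, 0.85 for HSPA5, 0.75 for HSPA12A, 0.65 for HSP90B1, 0.62 for DNAJC30 and 0.61 for DNAJC2. Its change was -1.32 for DNAJC28, -1.31 for HSPA12B, -0.80 for HSPA2, -0.70 for DNAJC6, -0.52 for DNAJC18 and -0.43 for DNAJB2.

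Between 24 h and 48 h the effect rose by 0.78 for HSPA4L, 0.51 for DNAJB4, 0.51 for DNAJC1, 0.45 for DNAJB9, 0.42 for DNAJB2 and 0.38 for DNAJC13. Its change was -1.79 for HSPA12B, -1.66 for HSPB8, -0.87 for HSPA12A, -0.52 for HSPB1, -0.52 for DNAJA1 and -0.50 for HSPE1. The calls on DNAJC30 and DNAJC13 were lost without at least 1 library. DNAJC13 was also lost under the replicate block (edgeR adjusted p = 0.0503).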

How the results depend on the processing

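Among values of named genes recalculated under the alternatives, 1191 kept their call, 81 lost it and 0 changed sign. Leaving out each library in turn, calls held every time for 19 of 28 genes for Dox at 12 h, 14 of 23 at 24 h and 4 of 10 at 48 h, and for 29 of 36, 6 of 8 and 30 of 37 for NoDox at 12, 24 and 48 h against day 10.

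With library totals, Dox at 12 h gave 30 of the 62 genes higher and 6 lower and 7340 and 2213 of all features, Dox at 48 h gave 3 and 9 of the 62 and 1017 and 2835 of all, the 24 h minus 12 h difference gave 22 lower of the 62 and 1914 and 5719 of all, and the 48 h minus 24 h difference gave 6 higher. With only the groups compared, 9 of the 62 were lower at 12 h and 5 at 48 h. DESeq2 gave 6 lower at 48 h. Leaving out a library gave 3 to 6 genes higher and 1 to 5 lower for Dox at 48 h, 1041 to 1640 features higher there, 6 to 10 genes higher for the 48 h minus 24 h difference (6 without replicate 2 of Dox at 24 h), and 1118 to 1567 features higher and 945 to 1483 lower for NoDox at 24 h (the lowest without its replicate 1). The 5 lower at 48 h came without replicate 1 of NoDox. The cause was not tested.

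The replicate block, the fit that pairs same-numbered samples, changed no call at 24 h, where it left 14 higher and 9 lower. In the other Dox comparisons it gave 13 and 14 at 12 h and 8 and 4 at 48 h for Dox. Counting limits the lowest genes: the 3-count floor was 0.0874 to 0.211 CPM.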
